A study of Mus musculus with 18 samples.

Results

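The MHC class II pathway was described through 10 genes, chosen by name and found in the expression table by NCBI gene ID. They are H2-Aa, H2-Ab1 and H2-Eb1, Cd74, H2-DMa, H2-DMb1 and H2-DMb2, H2-Oa and H2-Ob, and Ciita. They made up 10 of the 16545 genes measured, and none was at 0 FPKM in any library.

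The study asked what the transcription factor ZBTB24 does in mouse B cells. B cells purified from spleen were taken before culture with LPS (0 h) or after 24 or 48 h of LPS, a bacterial product that activates B cells, and their RNA was sequenced. Per the methods, both genotypes carried 1 copy of a B cell Cre allele, control mice with normal Zbtb24 (Zbtb24+/+, labelled CON) and B-CKO mice with both Zbtb24 copies floxed at exon 2 (Zbtb24loxp/loxp, labelled BKO). Each genotype gave 3 libraries per time point, 1 mouse per replicate, 18 libraries in all. The mice were on a C57BL/6 background, and controls were described as littermates. The Cre acts in cells of the B lineage. Age, sex and the LPS dose of these libraries are not given in the sources used here. No library came from cells cultured without LPS, so LPS and time in culture cannot be told apart.

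MHC class II molecules present peptides from endocytosed antigen to CD4 T cells, and resting B cells carry them at high levels. The α and β chains pair in the endoplasmic reticulum with the invariant chain, encoded by Cd74, which fills the groove and directs the complex to endosomes. There H2-DM removes the remaining invariant chain peptide and helps select peptides, and H2-O restrains H2-DM, a pairing best known in B cells. The genes share promoter elements, the X and Y boxes, bound by RFX, CREB and NF-Y proteins. CIITA, the class II transactivator, has no DNA binding of its own and is recruited to that assembly. When B cells become plasma cells, Ciita and with it the class II genes are known to be shut off.

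Of the members, 8 lie in the MHC on chromosome 17 of GRCm38, in the order H2-Oa, H2-DMa, H2-DMb2, H2-DMb1, H2-Ob, H2-Ab1, H2-Aa and H2-Eb1. H2-Oa spans chr17:34092379-34095234 and H2-Eb1 spans chr17:34305867-34316674. Ciita spans chr16:10480014-10531064, and Cd74 lies elsewhere. The annotated span of H2-DMa overlaps that of Brd2 by 3122 bases, and that of Ciita overlaps Dexi by 858 bases. Whether the counting used strand is not stated, so reads in these overlaps may have been shared between genes. H2-DMb1 and H2-DMb2 are close copies, with 94.3% identical bases over the 1211 aligned bases of their longest coding transcripts, so their separate levels are uncertain where reads matched both.

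RefSeq promoter windows, 250 bases before to 50 after an annotated start, were found for 7 members, H2-Oa, H2-Ob, H2-DMa, H2-DMb1, H2-DMb2, H2-Aa and H2-Eb1, and none for H2-Ab1, Cd74 or Ciita. The stretches below are shown because the members moved together and their shared elements lie there. Each has 60 bases, read 5′ to 3′ on the gene's own strand in GRCm38.p6. Capitals mark the X motif, which is AAC, then any 2 bases, then ATGATGC, and the Y motif TGATTGG, and neither overlaps the other. Both motifs were searched on both strands, and their letters were chosen with these windows in view.
H2-Eb1, plus strand, chr17:34305761-34305820: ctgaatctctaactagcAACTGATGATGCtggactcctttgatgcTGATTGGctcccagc
H2-Ob, plus strand, chr17:34238801-34238860: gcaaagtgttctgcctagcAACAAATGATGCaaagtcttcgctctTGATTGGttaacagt
H2-DMb1, plus strand, chr17:34153083-34153142: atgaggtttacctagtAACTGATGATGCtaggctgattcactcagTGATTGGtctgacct
H2-DMb2, plus strand, chr17:34145112-34145171: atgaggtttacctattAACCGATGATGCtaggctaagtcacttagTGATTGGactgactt
H2-Aa, minus strand, chr17:34287859-34287918: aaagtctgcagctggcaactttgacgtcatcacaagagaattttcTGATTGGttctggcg
H2-Oa, plus strand, chr17:34092289-34092348: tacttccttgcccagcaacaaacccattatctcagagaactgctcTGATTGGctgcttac

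The Y motif was found in 6 of the 7 members whose windows were used and in 7.82% of all 32851 promoter windows. The X motif was found in 4 members, H2-Eb1, H2-Ob, H2-DMb1 and H2-DMb2, and in 0.0396% of all windows, 13 in number. Only 5 windows of the whole table held both, 4 of them those members. The 2 H2-DMa windows held neither motif in these exact letters. A match describes letters and does not show that a factor binds.

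**Figure D1:**
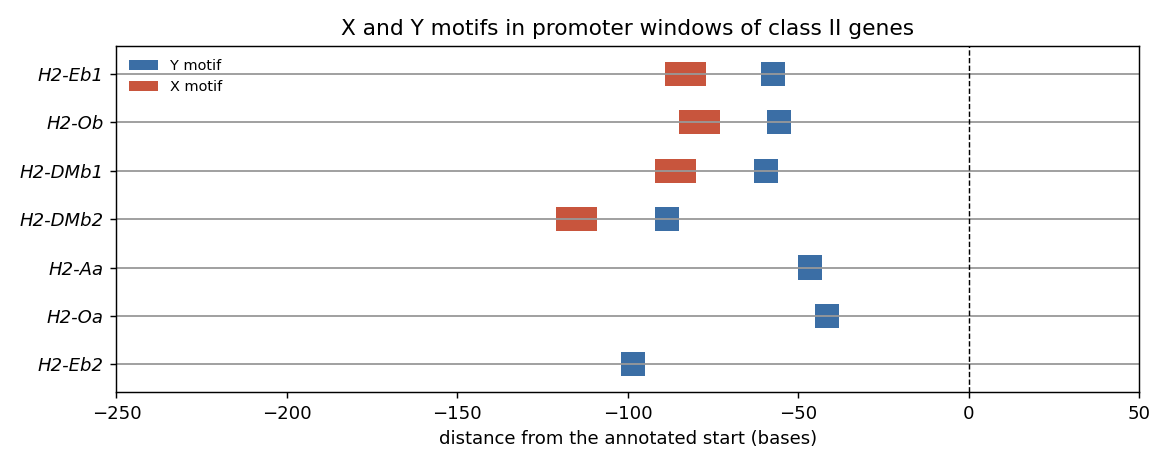
Positions of the X and Y motifs in the promoter windows of 6 members and of H2-Eb2, as distance in bases from the annotated start (dashed line at 0), 1 row per gene. Where both motifs are present the X motif lies upstream of the Y motif, and the Y motif begins between 102 and 45 bases before the start.

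The libraries were first checked against their labels. Zbtb24 stood at 37.1 to 49.6 FPKM in control and 10.5 to 14.3 FPKM in B-CKO libraries at 0 h. At 24 h it was 15.7 to 18.8 against 10.4 to 11.7 FPKM, and at 48 h 13.4 to 17.1 against 9.23 to 11.3 FPKM. The groups did not overlap at any time. Such a downward separation held for 1.94% of all genes tested at 0 h, 11.7% at 24 h and 6.24% at 48 h. In the limma fits described below, Zbtb24 had log2 fold changes of -1.78, -0.64 and -0.50 at 0, 24 and 48 h. It was not called at any time (adjusted p = 0.12, 0.059 and 0.27 in limma).

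The B cell identity of the libraries was clear at 0 h, with Cd79a, an antigen receptor subunit, at 1790 to 2270 FPKM. Cells with strong class II expression of other lineages were few by their markers. The 14 myeloid and dendritic cell markers summed to 16.7 to 28.2 FPKM at 0 h, 43.8 to 50.6 at 24 h and 57.6 to 65.0 at 48 h. Clec9a was at or below 0.07 FPKM throughout, C1qa was listed at 0 in every LPS library, and most of the later sum came from Mpeg1 and Flt3. The 10 T and NK cell markers summed to 23.7 to 35.7 FPKM at 0 h and 8.93 to 15.0 later, with Lck giving most of both. The 0 h libraries stood apart in immediate early genes, with Fos at 344 to 444 FPKM against 0.43 to 1.81 later. Replicate 1 of both genotypes differed at 0 h from replicates 2 and 3 in Irf4, at 118 and 119 against 254 to 266 FPKM. Read depth is not in the files. From the steps between the lowest values of 67 genes, of which 37.3% came out whole within 0.1 in every library, the 0 h libraries were estimated at 0.895 to 0.922 and the others at 1.05 to 1.07 times the mean depth. Many later libraries shared the same estimate of 1.045, so these values are coarse and the true depth stays unknown.

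Before LPS the pathway was among the most abundant messages of the cells. FPKM is scaled per kilobase of transcript, so levels can be set side by side between genes. Cd74 had the highest value of all 16545 genes in each of the 6 libraries, at 9967, 11442 and 9967 FPKM in control and 10524, 9884 and 10805 FPKM in B-CKO. The chains of I-A, the conventional class II molecule of these mice, ranked between 3 and 6 in every library.

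H2-Aa, the I-A α chain, was at 3157, 3274 and 3660 FPKM in control and 3173, 2916 and 3729 FPKM in B-CKO. H2-Ab1, the I-A β chain, was at 3066, 3533 and 3358 FPKM in control and 3125, 2972 and 3535 FPKM in B-CKO. The I-A chains overlapped each other, and in both chains the genotypes overlapped. H2-Eb1, the β chain of I-E, was lower, at 1624, 1893 and 2002 FPKM in control and 1844, 1686 and 2116 FPKM in B-CKO. Its partner H2-Ea, which C57BL/6 mice are known to lack as a functional gene, did not exceed 0.60 FPKM in any library.

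The H2-DM and H2-O genes stood at a lower level. H2-DMb2 was at 899, 1006 and 908 FPKM in control and 872, 868 and 908 FPKM in B-CKO, and H2-DMb1 at 429, 502 and 469 against 424, 447 and 478 FPKM. H2-DMa, the common α chain of H2-DM, was at 236, 250 and 240 against 248, 214 and 266 FPKM. H2-Ob, the β chain of H2-O, was at 450, 437 and 517 against 456, 427 and 532 FPKM. In control cells H2-Ob overlapped H2-DMb1 and no other H2-DM gene.

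H2-Oa, the α chain of H2-O, was at 201, 184 and 207 against 208, 160 and 233 FPKM. Ciita was lowest of the members, at 114, 99.7 and 91.7 FPKM in control and 109, 105 and 98.0 FPKM in B-CKO. The order of control means was thus Cd74, then H2-Aa and H2-Ab1 without separation, H2-Eb1, H2-DMb2, then H2-Ob and H2-DMb1 without separation, H2-DMa, H2-Oa and Ciita. Together the members took 4.30 to 4.83% of the summed FPKM of a library.

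**Figure D2:**
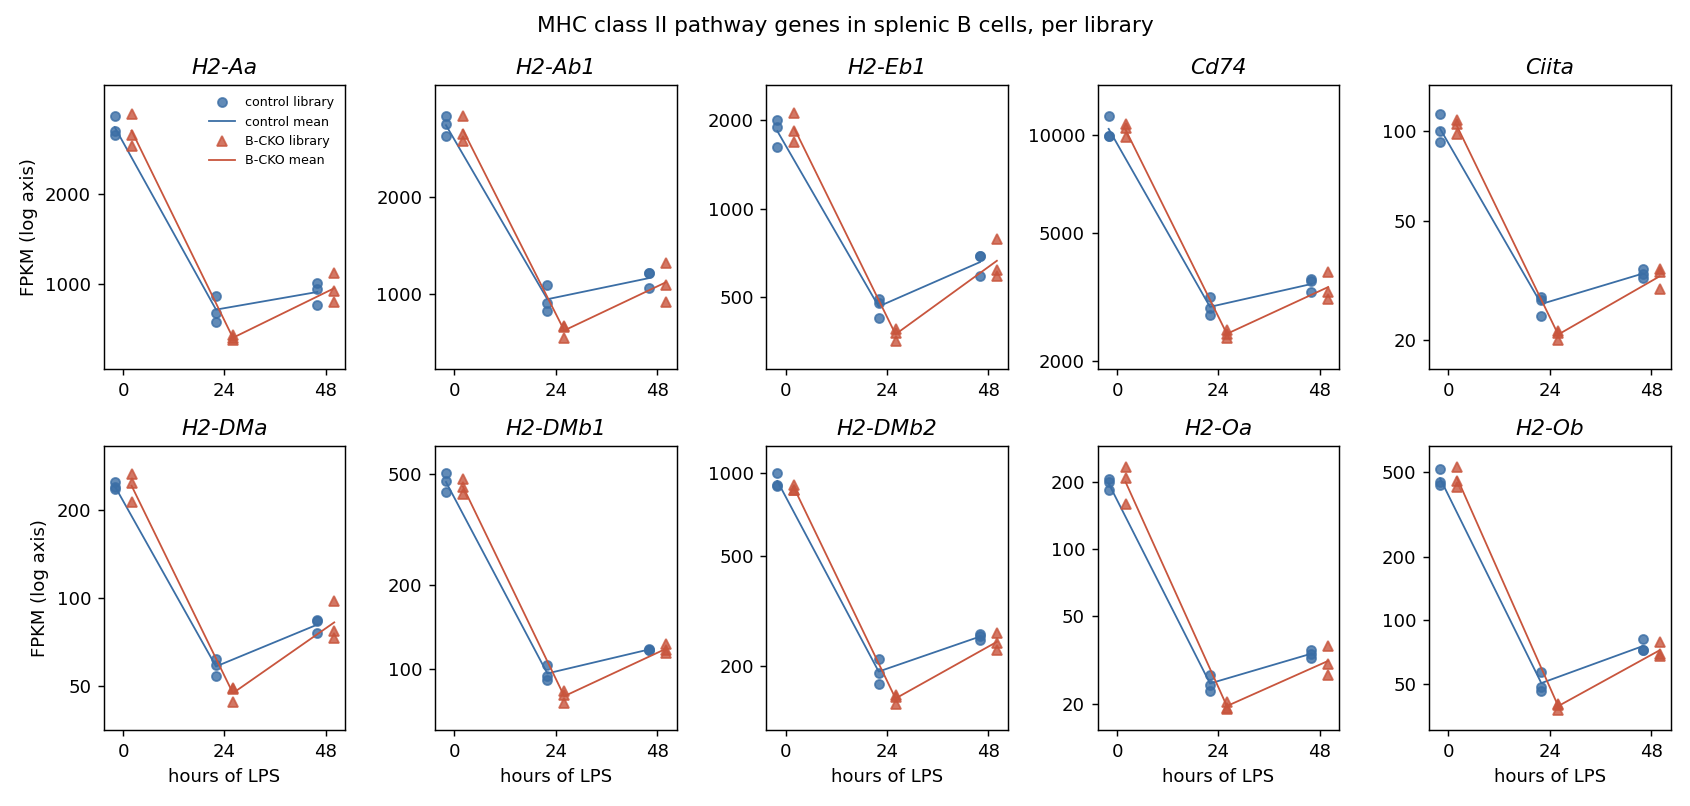
FPKM of the 10 members in each of the 18 libraries (log axes, each panel with its own range), against hours of LPS. Circles are control and triangles B-CKO libraries, and lines join the means of 3 libraries. Every member falls between 0 and 24 h, and at 24 h each triangle lies below each circle.

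All members fell within 24 h of LPS. In control cells 10 of 10 were lower at 24 than at 0 h, where 30.7% of the 15531 genes tested were lower and 26.7% higher. Changes are log2 fold changes of FPKM + 1, and calls rest on an adjusted p under 0.05 from limma with Benjamini-Hochberg adjustment over all genes tested. The members ranged from -1.78 to -3.18 with a median of -2.04, beside a median of -0.02 over all genes, and standard errors were at most 0.11. The adjusted p lay between 5.2e-06 and 3.1e-05. In bulk RNA, fewer cells of a type and less RNA per cell cannot be told apart, and FPKM are shares of each library, so no fall in molecules per cell was measured.

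The H2-O genes fell furthest. H2-Ob went from a control mean of 468 ± 43.2 (SD, n = 3) to 57.0, 46.3 and 48.6 FPKM, a 9.24-fold fall of the means and a log2 change of -3.18 (SE 0.10). H2-Oa went from 197 ± 12.1 (SD, n = 3) to 26.9, 22.9 and 24.3 FPKM, a 7.98-fold fall with a log2 change of -2.95 (SE 0.08). No value at 24 h came near the lowest at 0 h for either gene. At 0 h H2-Oa lay above Ciita in each of the 6 libraries, whereas at 24 h Ciita lay above H2-Oa in each of the 6, though their control values overlapped across libraries.

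H2-DM genes had smaller falls. H2-DMb2 reached 211, 172 and 189 FPKM (log2 change -2.30, SE 0.09), H2-DMb1 103.8, 92.0 and 94.6 FPKM (-2.26, SE 0.08) and H2-DMa 61.8, 54.1 and 58.7 FPKM (-2.04, SE 0.06). Against their 0 h means these were falls of 4.92-, 4.82- and 4.16-fold.

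The classical chains, the invariant chain and Ciita had changes close to that of H2-DMa or smaller. H2-Aa reached 910, 748 and 801 FPKM in control cells (log2 change -2.04, SE 0.10) and H2-Ab1 1071, 886 and 939 FPKM (-1.78, SE 0.10). H2-Eb1 reached 493, 423 and 475 FPKM (-1.98, SE 0.10), Cd74 3148, 2774 and 2913 FPKM (-1.83, SE 0.11) and Ciita 27.8, 24.1 and 27.3 FPKM (-1.90, SE 0.10). Cd74 remained among the 8 highest genes in the control libraries at 24 h, while H2-Aa and H2-Ab1 moved to ranks 88 to 109.

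In B-CKO cells 10 of 10 members likewise fell by 24 h, where 32.3% of 15551 genes tested were lower and 27.5% higher. The log2 changes ran from -2.05 for H2-Ab1 to -3.54 for H2-Ob, with H2-Oa at -3.28, H2-DMb2 at -2.53, H2-DMb1 at -2.47, H2-DMa at -2.33, H2-Eb1 at -2.33, H2-Aa at -2.30, Ciita at -2.26 and Cd74 at -2.10. In both genotypes the H2-O genes fell furthest and H2-Ab1 least. The share of a library's summed FPKM held by the members dropped to 1.00 to 1.17% in control and 0.845 to 0.898% in B-CKO.

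Between 24 and 48 h the pathway rose again in part. In control cells 7 of 10 members were higher at 48 h, where 20.1% of 15178 genes tested were higher. H2-Ob rose most, to 72.6, 72.3 and 82.0 FPKM (log2 change 0.57, SE 0.09), followed by H2-Eb1 at 690, 591 and 690 FPKM (0.50, SE 0.08) and H2-DMa at 83.9, 76.1 and 83.0 FPKM (0.47, SE 0.06). H2-Oa (0.43), H2-DMb2 (0.43), Ciita (0.33) and H2-DMb1 (0.28) also rose. Cd74 at 3584, 3279 and 3532 FPKM, H2-Ab1 at 1159, 1044 and 1160 FPKM and H2-Aa at 1009, 849 and 962 FPKM had log2 changes of 0.24, 0.22 and 0.20 with adjusted p of 0.058, 0.077 and 0.14.

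The control count was sensitive to the libraries and genes used. Without control replicate 3 at both times only 3 of 10 members passed (H2-DMa, H2-Oa and H2-Ob), and with genes of a mean of at least 1 FPKM all 10 did, where 26.7% of 9821 genes were higher. With a replicate block, which treats same-numbered libraries as paired, the adjusted p of the members in limma ran from 0.0014 to 0.085. All 10 log2 changes were positive under each of these settings.

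In B-CKO cells 10 of 10 members rose between 24 and 48 h, where 21.7% of 15253 genes tested were higher. The log2 changes were 0.86 for H2-Ob, 0.82 for H2-Eb1, 0.78 for H2-DMa, 0.68 for H2-DMb2, 0.64 for H2-Oa, 0.62 for Ciita, 0.56 for H2-DMb1, 0.55 for H2-Aa, 0.48 for H2-Ab1 and 0.48 for Cd74. The recovery was partial in both genotypes. At 48 h control means were between 16.2% of the 0 h mean for H2-Ob and 35.7% for H2-Eb1, and B-CKO means between 15.3% for H2-Ob and 35.3% for H2-Eb1. All 10 members were lower at 48 than at 0 h in control cells (log2 changes -1.48 to -2.61) and in B-CKO cells (-1.51 to -2.69), where 30.3% of 15584 and 30.7% of 15695 genes tested were lower and 26.5% and 27.0% higher.

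**Figure D3:**
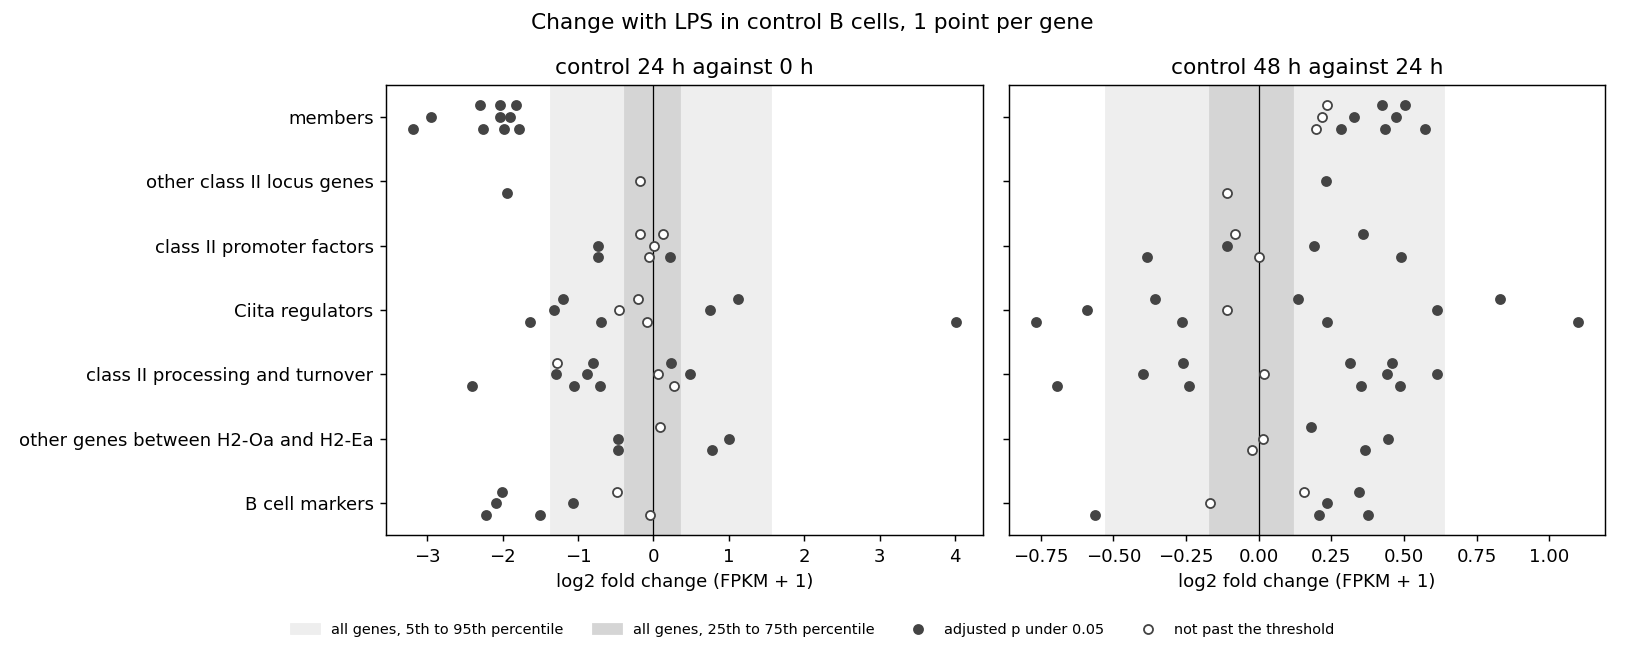
Log2 fold change of FPKM + 1 in control cells from 0 to 24 h (left) and from 24 to 48 h (right), 1 point per gene and 1 row per gene list, filled where the adjusted p is under 0.05. Grey bands give the 5th to 95th and 25th to 75th percentiles of all genes tested. The members lie between -1.78 and -3.18 on the left and between 0.20 and 0.57 on the right.

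Ratios within a library do not depend on its scaling. The summed H2-DM genes to the summed H2-O genes gave 2.40, 2.83 and 2.23 in control and 2.33, 2.60 and 2.16 in B-CKO libraries at 0 h. At 24 h the ratio was 4.49, 4.59 and 4.69 in control and 4.65, 4.50 and 5.09 in B-CKO, and at 48 h 4.25, 4.23 and 4.003 against 4.36, 4.36 and 4.20. Every library with LPS lay above every library without it, in both genotypes. As messages, H2-O was therefore lost to a greater extent than H2-DM, the molecule it restrains.

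The other ratios moved less. H2-Aa to H2-Ab1 lay between 0.927 and 1.09 at 0 h, and below 1 in all libraries with LPS, at 0.819 to 0.894 at 24 h and 0.814 to 0.922 at 48 h. For this ratio each library with LPS lay below each library without it. Cd74 to the sum of H2-Aa, H2-Ab1 and H2-Eb1 lay between 1.105 and 1.354 in all 18 libraries. H2-DMb1 to H2-DMb2 lay between 0.452 and 0.536. Between genotypes, the 4 ratios at 3 times gave 12 two-sided exact permutation tests (n = 3 against 3, smallest possible p = 0.1), of which the lowest p was 0.2 and the lowest adjusted p 0.80.

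**Figure D4:**
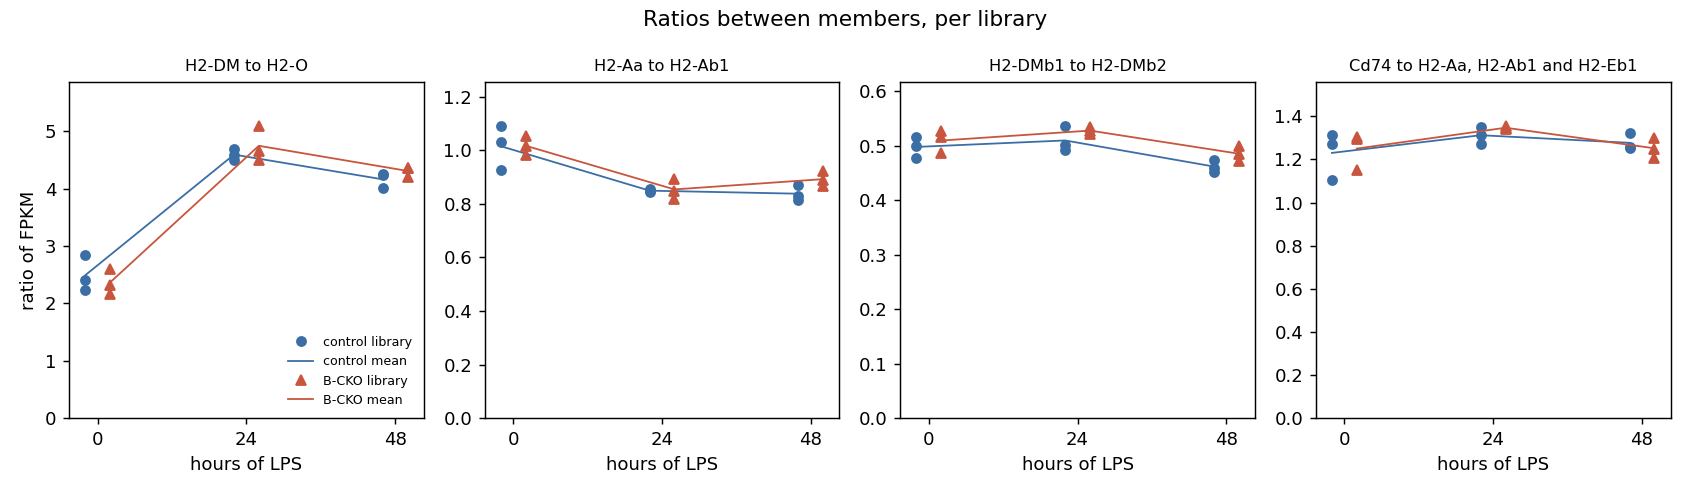
Ratios of FPKM between members in each library against hours of LPS, with axes from 0. Circles are control and triangles B-CKO libraries, and lines join means of 3 libraries. H2-DM to H2-O rises from 2.16 to 2.83 at 0 h to 4.49 to 5.09 at 24 h, and the other 3 ratios stay within narrower ranges.

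The genotypes did not separate at 0 h. The log2 fold changes of B-CKO over control ran from -0.09 (H2-DMb2) to 0.03 (Ciita), and limma called 0 of 10 members, 0 at an unadjusted p under 0.05, beside 0 of 15641 genes (0.0%) called in either direction and 313 of them at an unadjusted p under 0.05. No member had all B-CKO libraries below or all above the control libraries, as 1.94% and 1.92% of genes had. Leaving out libraries moved the lowest of these values to between -0.14 (without B-CKO replicate 3) and -0.02, and the highest to between 0.0077 and 0.16 (without B-CKO replicate 2). The libraries at 0 h varied more than later ones, and the intervals were wide, from -0.49 to 0.48 for Cd74 and from -0.20 to 0.27 for Ciita.

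At 24 h every member was lower in every B-CKO library than in every control library. Such a separation held for 10 of 10 members and for 11.7% of the 15104 genes tested, while 8.43% separated upward. Cd74 was at 2432, 2362 and 2498 FPKM against 3148, 2774 and 2913 FPKM in control. H2-Aa was at 646, 656 and 676 FPKM, H2-Ab1 at 789.8, 734 and 795 FPKM and H2-Eb1 at 376, 354 and 388 FPKM, each below the lowest control value of 748, 886 and 423 FPKM. H2-DMa was at 49.0, 44.0 and 48.5 FPKM, H2-DMb1 at 80.9, 75.9 and 84.0 FPKM and H2-DMb2 at 153, 146 and 157 FPKM.

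The H2-O genes and Ciita showed the same separation at 24 h. H2-Oa was at 20.4, 19.2 and 19.0 FPKM, below the control values of 22.9 to 26.9 FPKM. H2-Ob was at 40.5, 39.9 and 37.9 FPKM, below 46.3 to 57.0 FPKM. Ciita was at 20.9 ± 0.796 FPKM (SD, n = 3) with a highest value of 21.5 FPKM, below 24.1 to 27.8 FPKM.

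None of these differences passed the threshold in the comparison of all genes. The log2 fold changes were similar across members, from -0.27 (H2-DMb1, SE 0.06) to -0.35 (H2-Ob, SE 0.07), with Ciita at -0.32 (95% interval -0.46 to -0.18), Cd74 at -0.28 (-0.43 to -0.12) and H2-Aa at -0.31 (-0.48 to -0.14). As shares of the control mean, Ciita was lower by 20.9% and H2-Ob by 22.1%. The unadjusted p was between 0.0010 and 0.0043 in limma and the adjusted p between 0.090 and 0.13, so 0 of 10 members were called, all 10 having an unadjusted p under 0.05. Over all genes 0.0861% were called lower and 0.0132% higher, and 2463 genes had an unadjusted p under 0.05. A two-sided exact permutation test gave p = 0.1 for each member, the smallest that 3 against 3 allows.

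The call turned on which genes entered the fit. With only the 9711 genes of a mean of at least 1 FPKM, limma called 10 of 10 members lower, with adjusted p from 0.017 to 0.031, and 3.05% of those genes. The log2 fold changes were the same, since the filter leaves each gene's values as they are. Leaving out any 1 library or any replicate number gave 0 calls, with member log2 fold changes of -0.22 to -0.41. Beside the members, a fold change of -0.25 or less was found in 2.42% of all genes tested at 24 h and in 3.3% of those with a mean log2(FPKM + 1) of at least 1.

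Other B cell genes also had negative differences at 24 h. Of 7 B cell markers, 7 had negative log2 fold changes, with a median of -0.15 beside -0.0046 over all genes tested. In limma 0 of them were called, 5 having an unadjusted p under 0.05. With genes of a mean of at least 1 FPKM 2 were called lower (Cd79a and Cd22), where 3.05% of genes were, and 4 when the replicate block was added, where 5.11% were. Cd22, an inhibitory receptor, was at -0.29 (adjusted p = 0.090) and Fcer2a, the IgE receptor CD23, at -0.26 (adjusted p = 0.18). Ms4a1, encoding CD20, was at -0.13 and Cd79b at -0.01. These genes are named after their values were seen. The myeloid and dendritic cell markers summed to 43.8 to 47.7 FPKM in B-CKO and 47.2 to 50.6 FPKM in control at 24 h, while Flt3 among them was higher in each B-CKO library (8.72 to 9.49 against 6.39 to 6.77 FPKM, adjusted p = 0.059 in limma). The T and NK cell markers summed to 9.86 to 11.4 FPKM in B-CKO against 12.2 to 15.0 FPKM. The immediate early genes summed to 144 to 162 FPKM against 166 to 175 FPKM, so both sums separated downward. Most of the T and NK sum was Lck, at 9.15, 8.24 and 9.31 FPKM in B-CKO against 13.3, 11.5 and 11.2 FPKM. Its other markers were at or below 0.69 FPKM, and Cd8b1 among them was higher in each B-CKO library (0.29 to 0.69 against 0.11 to 0.24 FPKM). The part of these lists in the difference was not tested.

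At 48 h the groups overlapped again for all 10 members, where 6.24% of genes separated downward and 4.89% upward. Cd74 was at 3282, 3121 and 3772 FPKM in B-CKO and Ciita at 29.7, 34.5 and 33.9 FPKM, against 33.2, 32.3 and 34.6 FPKM in control. B-CKO replicate 3 held the highest value of all 6 libraries for 8 members. The log2 fold changes ran from -0.11 (H2-Oa) to 0.04 (H2-Aa), and limma called 0 of 10, none at an unadjusted p under 0.05, where 0.0394% of 15210 genes were called lower and 0.00657% higher. Without B-CKO replicate 3 all 10 were negative, from -0.23 to -0.02, and limma called 0 of 10 (lowest adjusted p 0.55).

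Whether the change over time differed between genotypes was tested directly. From 0 to 24 h the difference of the changes was negative for 10 of 10 members, from -0.21 for H2-DMb1 to -0.36 for Ciita, and from 24 to 48 h positive for 10 of 10, from 0.21 for H2-Oa to 0.35 for H2-Aa. Each stayed so with any replicate left out at both times, but the value nearest 0 was then as small as -0.10 (without control replicate 1) and 0.076 (without B-CKO replicate 3). The 24 h libraries enter both contrasts with opposite sign. limma called 0 of 10 members in either contrast, with the lowest adjusted p at 1 and 0.53, and it called 0.0% of 16182 and of 15844 genes. At an unadjusted p under 0.05 in limma were 4 and 6 members, beside 467 and 1158 of all those genes. The difference between the times thus did not pass the test.

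**Figure D5:**
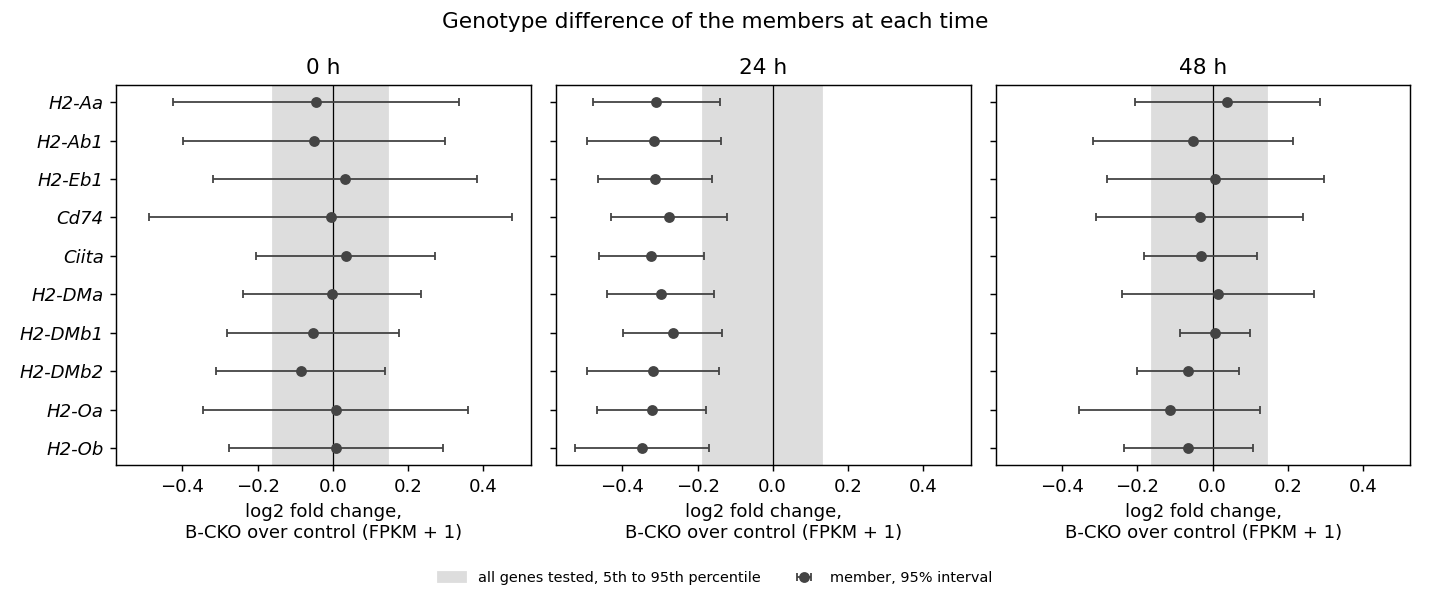
Log2 fold change of FPKM + 1 of B-CKO over control for each member at 0, 24 and 48 h, with 95% intervals from limma (3 against 3 libraries). The grey band is the 5th to 95th percentile of all genes tested. At 24 h all 10 estimates lie between -0.35 and -0.27, and at 0 and 48 h the intervals cross 0.

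Ciita and its targets rose and fell together over the 18 libraries. Pearson's r of log2(FPKM + 1) with Ciita was 0.982 (H2-Eb1) to 0.994 (H2-DMb2) for the other 9 members. These values describe the 3 time points more than the mice. Within the 6 libraries at 24 h, which hold both genotypes, r was 0.93 to 0.99, at 48 h 0.097 to 0.463, and at 0 h -0.808 to -0.202. At 0 h the library with most Ciita, control replicate 1, had the lowest H2-Eb1 value of the 6.

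By the same measure, among 6151 genes outside the lists with a mean of at least 10 FPKM, the 5 most like Ciita were Arhgap45 (r = 0.997), Slc44a2 (0.996), Dok3 (0.995), Siglecg (0.995) and Btg2 (0.994). Arhgap45 went from 404, 374 and 327 FPKM in control cells at 0 h to 79.3, 69.9 and 79.7 FPKM at 24 h. The 5 most like the mean z-score of the members were Klf2 (0.996), Rchy1 (0.995), Btg1 (0.995), Cnr2 (0.995) and Retreg1 (0.995). Klf2, a transcription factor of quiescent lymphocytes, went from 787, 941 and 788 FPKM to 77.5, 67.9 and 71.6 FPKM. In B-CKO at 24 h Klf2 was at 58.9, 51.1 and 51.2 FPKM. Of the genes picked by likeness, Slc44a2, Rchy1 and Retreg1 overlapped between genotypes at 24 h. The rest were lower in each B-CKO library, as 11.7% of all genes were, and likeness was measured on the same libraries. Btg1 and Btg2 are antiproliferative genes, and Siglecg is an inhibitory receptor of B cells.

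Of the factors that bind class II promoters, 2 of 7 were lower and 1 higher in control cells by 24 h, where 30.7% of all genes were lower and 26.7% higher. The RFX subunits Rfx5 (log2 change -0.74, SE 0.09) and Rfxank (-0.74, SE 0.11) fell, the NF-Y subunit Nfyc was higher (0.23, SE 0.08, adjusted p = 0.045 in limma) and 4 were not called, with a list median of -0.06. No factor was called higher under 5 of 10 alternatives, among them TPM, the replicate block and the fits without control replicate 1 or 2. Rfx5 was at 41.2, 34.2 and 33.9 FPKM at 0 h, 22.6, 20.03 and 21.4 FPKM at 24 h and 15.7, 17.04 and 15.6 FPKM at 48 h. Rfx5 was lower at 48 than at 24 h in control cells (log2 change -0.38, SE 0.06), when 7 of 10 members were called higher. At 24 h Rfx5 was 17.1, 18.5 and 17.4 FPKM in B-CKO, below each control, with a log2 fold change of -0.26 (adjusted p = 0.10 in limma), and was called lower with genes of a mean of at least 1 FPKM.

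The 10 regulators of Ciita moved in both directions in control cells by 24 h, 3 higher and 4 lower, where 26.7% of all genes were higher and 30.7% lower. Leaving out 1 control replicate at both times gave 2 to 3 higher and 2 to 6 lower, the 2 lower without control replicate 2. Zbtb32, which represses Ciita in activated B cells, rose from 6.91, 6.27 and 4.84 to 104.8, 114 and 114 FPKM and then to 156, 184 and 173 FPKM (log2 change to 24 h 4.01, SE 0.12). Prdm1, encoding BLIMP-1, another repressor of Ciita and the main driver of plasma cell fate, was at 1.55, 2.89 and 3.79 FPKM at 0 h, 7.66, 5.35 and 8.02 FPKM at 24 h and 14.7, 12.4 and 22.3 FPKM at 48 h (1.13, SE 0.26). Both repressors also rose from 24 to 48 h (0.61, SE 0.07, and 1.10, SE 0.22), as most members did.

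Of those regulators, Pax5 and Ebf1 fell, while Pou2af1 and Irf8 had control means at 24 h of 85.6% and 91.8% of those at 0 h. Pax5 went from 227, 224 and 272 to 156, 143 and 146 FPKM (log2 change -0.69, SE 0.09) and Ebf1 from 70.8, 67.7 and 85.2 to 31.6, 31.4 and 32.2 FPKM (-1.20, SE 0.09). Irf4 fell from 118, 263 and 262 to 62.7, 66.2 and 63.4 FPKM (-1.64, SE 0.31), with replicate 1 apart at 0 h. Pou2f2, the octamer factor OCT2, rose from 111, 93.0 and 85.0 to 162, 160 and 162 FPKM (0.75, SE 0.10). At 24 h none of the 10 was called between genotypes, and 2 (Irf8 and Bcl6) were called lower with genes of a mean of at least 1 FPKM, where 3.05% of genes were. All 10 log2 fold changes were negative, where the median over all genes tested was -0.0046, and some were small. Irf4 had means of 63.5 FPKM in B-CKO and 64.1 FPKM in control, and Zbtb32 was at 100.4, 118 and 112 FPKM in B-CKO.

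Among 11 genes of class II processing and turnover, 6 fell and 2 rose in control cells by 24 h, where 30.7% of all genes fell and 26.7% rose. The count that rose was 1 under TPM, with genes of a mean of at least 1 FPKM and without control replicate 1, and 0 without control replicate 2, and 6 to 7 fell under every alternative. Marchf1, a ubiquitin ligase that removes class II from the B cell surface, fell from 56.9, 57.9 and 49.8 to 10.99, 8.59 and 9.08 FPKM (log2 change -2.41, SE 0.11) and on to 5.88, 4.56 and 6.18 FPKM at 48 h. Ctss, the protease that trims the invariant chain in B cells, fell from 368, 340 and 315 to 193, 188 and 173 FPKM (-0.88, SE 0.08). Lgmn, an asparagine endopeptidase, fell from 81.3, 77.3 and 97.2 to 40.4, 38.6 and 42.7 FPKM (-1.05, SE 0.10). Ctsb (-0.71, SE 0.07) and Ctsl (-1.29, SE 0.15) fell as well, Ctsl from at most 4.01 FPKM. Marchf1 and Ctss were lower still at 48 than at 24 h in control cells (adjusted p = 0.0041 and 0.036), while Lgmn, Ctsb and Ctsl rose (log2 change 0.61, 0.49 and 0.46).

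Of 5 neighbouring genes of other pathways 2 were higher and 2 lower, where 26.7% of all genes were higher and 30.7% lower. Without control replicate 2 none of the 5 was called. Brd2, Psmb9, Tap1, Psmb8 and Tap2 lie between H2-Oa and H2-Ea, and this set was taken from positions after the table was read. In control cells Psmb8 and Psmb9, immunoproteasome subunits, rose by 24 h (log2 change 1.00, SE 0.19, and 0.78, SE 0.17), Brd2 (-0.48, SE 0.08) and Tap2 (-0.47, SE 0.08) fell, and Tap1, a peptide transporter subunit, was at 0.08. Psmb8 was at 187, 147 and 107 FPKM at 0 h and 296, 285 and 285 FPKM at 24 h. H2-Eb2, another class II β gene of the locus, followed the members, from 52.0, 46.4 and 46.5 to 12.4, 11.3 and 11.7 FPKM (-1.94, SE 0.07), with 10.1, 9.63 and 8.50 FPKM in B-CKO at 24 h. Tap1, Psmb8, Psmb9 and Tap2 were also lower in each B-CKO library than in each control library at 24 h, as 11.7% of genes were, and Brd2 overlapped. Their log2 fold changes ran from -0.15 (Tap1) to -0.02 (Brd2). In limma 0 of the 5 were called lower, and at most 1 under the alternatives.

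Of the 7 B cell markers, 5 fell in control cells by 24 h and none rose, where 30.7% of all genes fell and 26.7% rose. Their median log2 change was -1.50, and Ms4a1 (-0.05) and Cd79b (-0.48) did not pass. Blk, a kinase of antigen receptor signalling (-2.22), Fcer2a (-2.09) and the complement receptor Cr2 (-2.01) changed most. Their summed level went from between 3894 and 5151 FPKM at 0 h to between 2059 and 2215 FPKM at 24 h in control cells. Their part in the change of the members was not tested.

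Markers of plasma cells and of red cells moved over time too. Of 5 plasma cell markers, Sdc1 (-1.31) and Jchain (-2.27) fell in control cells by 24 h, Xbp1 (0.34) and Tnfrsf13b (1.84) rose, and Tnfrsf17 (-0.44) did not pass. Over all genes 30.7% fell and 26.7% rose by 24 h. From 24 to 48 h 4 rose, among them Jchain (1.69) and Xbp1 (1.07), and 1 fell, where 20.1% of all genes rose and 24.8% fell. Their summed level in control cells was 183 to 197 FPKM at 0 h, 248 to 269 FPKM at 24 h and 282 to 381 FPKM at 48 h. The erythroid markers summed to 15.0 to 37.6, 8.23 to 11.5 and 9.67 to 9.93 FPKM at these times, with 4 of 5 tested lower by 24 h and Hbb-bt higher, where 30.7% of all genes were lower and 26.7% higher. Between genotypes at 24 h limma called 0 of 5 in either list, none at an unadjusted p under 0.05, and their part in the change of the members was not tested.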

How the data were processed

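RNA of 18 libraries (6 groups of 3) was compared. The authors' deposited values are FPKM, read fragments scaled by transcript length and by the mapped total of the library, written with 2 decimals for 16545 genes. The study's methods give bowtie2 with default settings on mm10, Cufflinks and RSEM, and the submitters' processing notes also list BWA and DESeq2. The sequencer is MGI2000 in the labels and HiSeq or Novaseq in the methods. Counts and depth are not used here, since the files hold FPKM, so the study's DESeq2 test was not run. NCBI gene IDs were matched to RefSeq symbols (GRCm38.p6) for 16512 genes, and 33 stayed without a symbol.

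Genes above 0 in any compared library were tested on log2(FPKM + 1) with limma 3.58.1 (trend, R 4.3.3), using only the groups compared, with Benjamini-Hochberg adjustment over all genes tested and a threshold of 0.05. A fold change on this scale understates low genes. Ratios were tested by two-sided exact permutation over libraries in Python 3.11.15. The fits were tested on simulated data with known changes, with spread set from the control libraries, so the rates need not hold for the real data. Between genotypes at 24 h, 50 of 61 genes changed 1.25-fold were recovered, with 6 false calls of 384. For control cells at 24 against 0 h, 2 of 64 genes changed 1.25-fold, 13 of 70 changed 1.5-fold and 51 of 66 changed 2-fold were recovered. The members and lists were chosen with earlier results of these data known. All members are named. From each list of promoter factors, Ciita regulators, processing genes and locus genes, up to 5 were named by the smallest adjusted p in control cells at 24 against 0 h among those whose groups did not overlap, plus Prdm1, Rfx5 and Ctss, and other names were chosen after their values were seen.

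Same-numbered libraries of the genotypes deviated together at 0 h (correlations 0.854, 0.468 and 0.789 across genes), which pairs them by the data at that time. Correlations were weaker for same-numbered B-CKO libraries at 24 and 48 h (0.126, 0.183 and 0.117) and for those of the genotypes at 24 h (0.104, 0.200 and 0.091). Neither is taken as a shown pairing. Other same-numbered pairs of times did not all pass 0.1. The labels repeat the replicate numbers at each time and in both genotypes, and name no shared mouse, litter or day. The methods give 1 mouse per replicate for splenic B cells, without saying whether the same mouse gave every time point. Alternatives were a pseudocount of 0.1, only genes averaging 1 FPKM or more, values rescaled to TPM or by median ratio, leaving out each replicate (at both times in a change over time), a replicate block and a single fit of all libraries. A further B cell marker was left out of the list and is not reported here.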

Additional observations from a re-analysis of the deposited data

How the results depend on the processing

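The fall by 24 h and the lower level at 48 than at 0 h held for 10 of 10 members in both genotypes under each alternative, and the 10 of 10 that separated downward in B-CKO at 24 h did so under TPM and the median ratio. Rescaling to TPM moved the median control change from 0 to 24 h of genes with a mean log2(FPKM + 1) of at least 1 from 0.02 to -0.16, and the members then ran from -1.95 to -3.36. The count of members called between genotypes at 24 h went from 0 to 10 with a mean of at least 1 FPKM, where fewer genes were tested and the unadjusted p of the members also moved, from between 0.00101 and 0.0043 to between 0.00018 and 0.00064. With the replicate block it was 0 (adjusted p 0.11 to 0.17), and with the replicate block and a mean of at least 1 FPKM, an alternative added after seeing the data, it was 10 (0.0064 to 0.025), where 5.11% of genes were called lower against 3.05% without the block. Over all settings the adjusted p of a member there ran from 0.0064 to 0.86, the highest in the single fit of 18 libraries. Alone, the block changed no count of members by over 1.5 times. It gave 9 in place of 7 for the control rise from 24 to 48 h and 10 of 10 for the B-CKO rise, as without it, and it took the promoter factors called higher from 1 to 0. Same-numbered genotype libraries correlated at 0.104, 0.200 and 0.091 at 24 h and -0.037, 0.216 and 0.230 at 48 h, so these numbers are not a shown pairing there. Leaving out 1 replicate at both times gave 3 to 7 members for the control rise and 8 to 10 for the B-CKO rise (8 without B-CKO replicate 1). Leaving out 1 library gave 0 to 1 separated members at 0 h and 0 to 4 at 48 h, where TPM gave 1 and fewer libraries can only add separations, and a highest member difference at 48 h of -0.025 to 0.11. The log2 genotype difference of H2-DM to H2-O then ran between -0.15 and 0.025 (0 h) and between -0.0055 and 0.083 (24 h), that of H2-Aa to H2-Ab1 between -0.059 and 0.058 (0 h) and between -0.027 and 0.037 (24 h), and that of Cd74 to the chains between -0.051 and 0.082 (0 h). The cause of these shifts was not tested. Depth is unknown, so no counting error was attached to the values.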
